A study of Rattus norvegicus with 4 samples.

Results

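The genes described here encode the subunits of the proteasome. They were taken as every probe whose accession in the array files maps to a rat gene with a symbol of Psma, Psmb, Psmc or Psmd followed by a number, leaving out the inducible subunits Psmb8, Psmb9 and Psmb10. The rule used no measured value. It gave 35 genes, measured by 38 probes, of 26650 genes and unnamed accessions on the array. These are 8 subunits of the alpha ring (Psma1 to Psma8), 7 of the beta ring (Psmb1 to Psmb7), 6 ATPases (Psmc1 to Psmc6) and 10 non-ATPase subunits (Psmd1, Psmd2, Psmd3, Psmd4, Psmd6, Psmd7, Psmd8, Psmd12, Psmd13 and Psmd14). The rule also takes Psmd5, Psmd9 and Psmd10, which are chaperones of base assembly rather than subunits of the finished particle. It takes Psmc3ip too, whose product is a meiotic recombination factor that was named for binding an ATPase subunit and is no part of the proteasome. The members Psmb11, Psmb3l1, Psmb3l2, Psmb6l1 and Psmd11 of the reference table have no matching probe and were not analysed here.

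The proteasome is the protease that degrades proteins tagged with ubiquitin. Its core particle is a barrel of stacked rings. Outer alpha rings gate the entrance, and inner beta rings hold the active sites on Psmb5, Psmb6 and Psmb7. Regulatory particles sit on its ends, where non-ATPase subunits bind and remove ubiquitin and the ring of ATPases unfolds the substrate and feeds it inward. Cells that lose proteasome activity make more of nearly all subunits together, through the transcription factor Nfe2l1 and antioxidant response elements in the promoters. In neurons the proteasome turns over synaptic proteins. Proteasome inhibitors and platinum drugs both cause painful neuropathy in patients.

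The tissue was spinal dorsal horn, where sensory fibres from the body end. RNA was taken on day 10 from male rats aged 6 weeks. An oxaliplatin group, given this platinum chemotherapy drug, and a vehicle group were each measured on 2 Agilent 2-colour arrays. On all 4 arrays the labels place RNA of the treated rats (oxaliplatin or vehicle) in Cy5 and RNA of untreated male rats of the same age in Cy3. The group of an array therefore refers to its Cy5 RNA, and Cy3 should hold the same kind of RNA throughout. Neither dose nor strain is stated in the labels, nor is the number of rats behind an array. The labels call the arrays biological replicates, but nothing says which animals or pools they came from, so p-values measure the spread between these arrays. No array had its dyes swapped, so a Cy5/Cy3 ratio mixes RNA and dye, while the difference in ratio between groups is free of a dye effect common to all arrays. Both oxaliplatin arrays lay on a slide of their own and both vehicle arrays on another, so slide and group cannot be told apart.

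In Cy5 between 82.6% and 85.4% of probes were well above background, and in Cy3 between 76.8% and 88.1%. Oxaliplatin replicate 2 had the lowest Cy3 share and the lowest median Cy3 signal, 283.5 scanner units against 494 to 564 on the others. The ratios of the 4 arrays correlated with each other at 0.75 to 0.93 over genes, which are not independent replicates. Markers of the labelled tissue were present: all 6 dorsal horn neuron genes tested were well above background in both channels on every array. All 9 markers of Schwann cells and dorsal root ganglion (for example Scn10a) were also above background throughout, with median log2 ratios of 3.15 and 3.08 on the oxaliplatin arrays and 2.95 and 3.24 on the vehicle arrays. The 5 forebrain genes tested had median log2 ratios of 3.75 to 4.24, and 4 of the 5 had ratios of at least 1.91 on every array, while Tbr1 had 0.28 to 0.51. The median ratios of the dorsal horn neuron list were -0.83 to -0.48. Those of the cord Hox genes, of which 3 of 6 listed were tested, were -1.29 to -0.98. Both medians thus lay below 0 on all 4 arrays. In the dorsal horn list Slc17a6, Slc32a1, Slc6a5 and Lbx1 lay below 0 on every array. Lmx1b lay above 0 on every array (0.17 to 0.38), and Pax2 on the oxaliplatin arrays (0.16 and 0.030). Fewer cells of a type and less RNA per cell cannot be told apart in such samples. A test over all 22817 genes (limma, Benjamini-Hochberg adjustment, threshold 0.05) found 0 with a different ratio between oxaliplatin and vehicle, against 14.6% with an unadjusted p under 0.05. Without oxaliplatin replicate 1 the count was 930, without oxaliplatin replicate 2 15, and without vehicle replicates 1 and 2 in turn 33 and 2.

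All 35 members were well above background in both channels on all 4 arrays and passed the filter on dim probes. Spots of a member's probe differed little, with a median SD of 0.035 and a largest SD of 0.15. The log2 Cy5/Cy3 ratio of a member on any array lay between -0.88 and 0.72. The SD of mean ratios between members was 0.28, against 0.52 for all genes. For 15 members the reference holds at least 1 copy or pseudogene named after them (10 of them for Psmb3, 5 for Psma6), and a probe may catch transcripts of such copies.

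Between oxaliplatin and vehicle most proteasome genes differed little in ratio. The log2 ratio was higher in the oxaliplatin group for 20 members and lower for 15, with a median difference of 0.023 (oxaliplatin minus vehicle) against 0.0055 for all genes. Over all genes 51.2% had a difference above 0. The SD of the difference was 0.22 over members and 0.25 over all genes. None of the 35 passed the limma test, where the smallest adjusted p was 0.266 (0 of all genes passed). Unadjusted p under 0.05 was reached by 6 members (Psmb7, Psmd9, Psmd13, Psmd7, Psma5 and Psmc3ip), against the 14.6% of all genes given above. The arrays of the groups did not overlap for 19 members, 7 with oxaliplatin higher and 12 with oxaliplatin lower. The background for this is high: the groups did not overlap for 49.2% of all genes, 27.0% with oxaliplatin higher and 22.2% lower. For 11 members the difference was larger than the gap between arrays within either group, as it was for 34.0% of all genes. The direction of the set depends on the scaling: with median centring in place of loess 26 members were higher, and with the scanner software's own ratio 17.

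**Figure D1:**
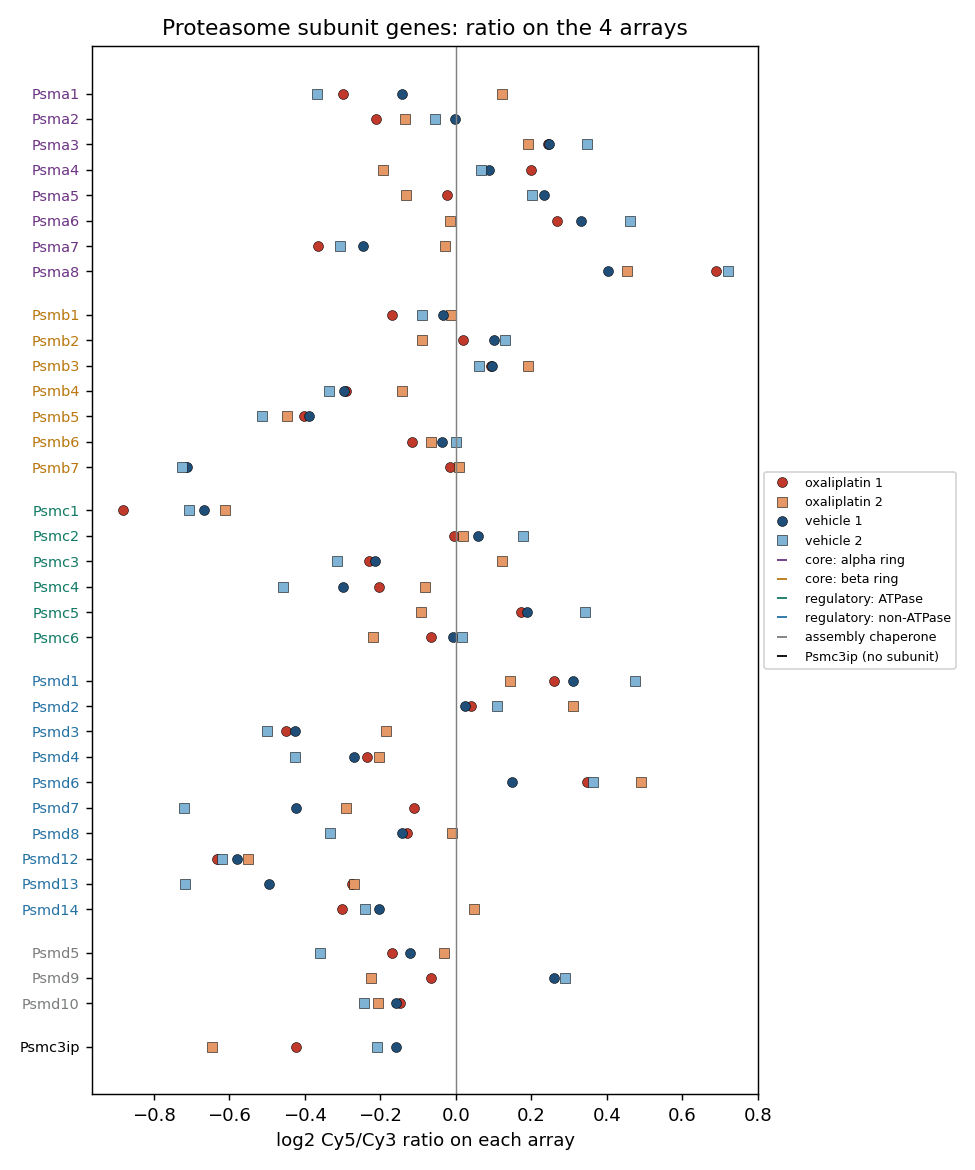
The log2 Cy5/Cy3 ratio (x axis) of each of the 35 genes (y axis) on the 4 arrays, with red and orange for the oxaliplatin arrays, dark and light blue for the vehicle arrays, and gene names coloured by class. Psmb7 has both vehicle arrays near -0.72 and both oxaliplatin arrays near 0, while the other genes show smaller gaps between groups.

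In the core particle 7 of 15 subunits had a higher and 8 a lower ratio in the oxaliplatin group, with a median difference of -0.029. In the regulatory particle 11 of 16 were higher and 5 lower, with a median of 0.12. Without oxaliplatin replicate 2 the regulatory count was 8 higher and 8 lower and the median -0.0066, so the tilt of that class rests on this array. By finer class the median was -0.077 in the alpha ring, 0.027 in the beta ring, -0.086 among ATPases and 0.14 among non-ATPase subunits. With median centring the core particle median was 0.053, and that of the ATPases also lay above 0, at 0.024. None of these classes was tested as a set.

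**Figure D2:**
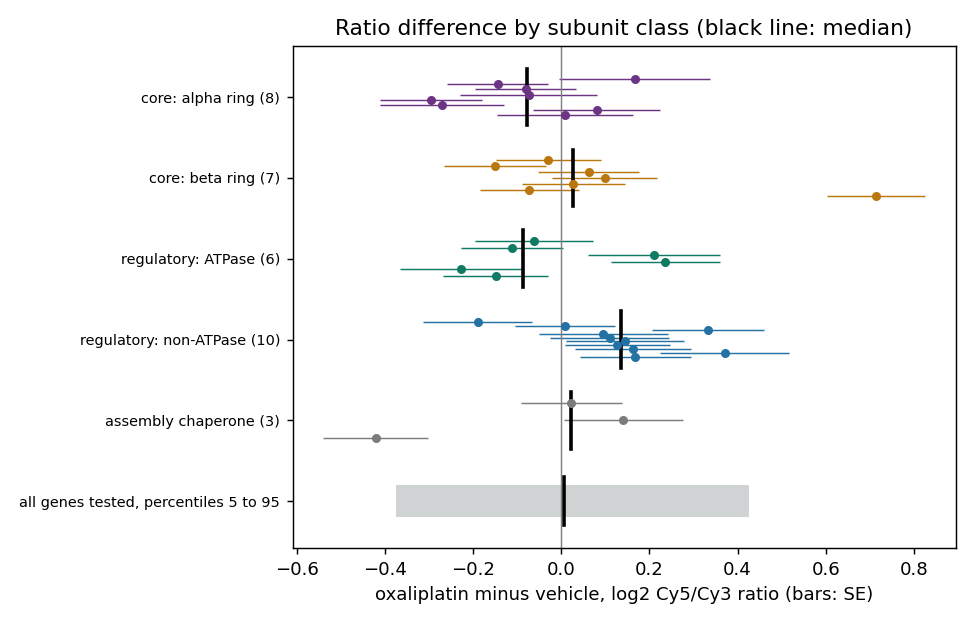
The difference in log2 Cy5/Cy3 ratio, oxaliplatin minus vehicle (x axis), of each gene by class (y axis), without Psmc3ip. Bars give the SE of the fit and black lines the class medians. A grey band from -0.38 to 0.43 leaves out the highest and the lowest 5% of all genes. Psmb7, at 0.71, is the member outside the band on the high side, Psmd9, at -0.42, lies outside it on the low side, and 9 of 10 non-ATPase subunits lie above 0.

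No alpha ring gene passed the test. Of its 8 genes 3 had a higher and 5 a lower ratio in the oxaliplatin group (4 and 4 with median centring), and 4 of the 5 did not overlap between groups (background 22.2%). Psma5, a structural ring subunit read by 10 spots per array, had log2 ratios of -0.022 and -0.13 on the oxaliplatin arrays and 0.23 and 0.20 on the vehicle arrays. Both oxaliplatin arrays lay below both vehicle arrays, by -0.30 ± 0.12 (SE, n = 2 arrays per group, limma adjusted p = 0.324). Psma6 had 0.27 and -0.016 in the oxaliplatin group and 0.33 and 0.46 in the vehicle group, a difference of -0.27 ± 0.14 (adjusted p = 0.415). Its oxaliplatin arrays lay 0.28 apart, as far as the groups did. Psma2 had -0.21 and -0.13 against -0.0017 and -0.055, a difference of -0.14 ± 0.11 (adjusted p = 0.581).

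At the other end of the alpha ring the groups overlapped. Psma1 had -0.30 and 0.12 on the oxaliplatin arrays and -0.14 and -0.37 on the vehicle arrays, so oxaliplatin replicates 1 and 2 differed by 0.42 while the groups differed by 0.17 ± 0.17 (adjusted p = 0.675). This was the widest gap between oxaliplatin arrays among the members. Psma7 had -0.36 and -0.029 against -0.25 and -0.31 (0.080 ± 0.14, adjusted p = 0.827). Without oxaliplatin replicate 2 the differences of Psma1 and Psma7 turned negative, to -0.043 and -0.087. Psma8, the alpha subunit of the testis that takes the place of Psma7 in germ cells, had 3 probes of 1 spot each. The probe used had 0.69 and 0.45 against 0.40 and 0.72 (0.0093 ± 0.15, adjusted p = 0.985), and the others differed by 0.29 and by 0.045, the last never above background. Psma3 and Psma4 differed by -0.081 and -0.074, and by 0.10 and 0.018 with median centring.

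The beta ring held the largest difference of the set. Psmb7 carries the trypsin-like active site. Its log2 ratio was -0.016 and 0.0084 on the oxaliplatin arrays and -0.71 and -0.72 on the vehicle arrays. The arrays of a group lay within 0.024 of each other, and the groups lay 0.71 ± 0.11 apart (SE, n = 2 arrays per group), a 1.64-fold difference in ratio. The unadjusted p was 0.00042 and the limma adjusted p 0.266, which misses the threshold. The difference was 0.67 to 0.76 under all alternatives run, with adjusted p of 0.0399 to 0.745. It passed only without oxaliplatin replicate 1, where 930 genes passed and Psmb7 was the single member among them. Psmb7 was the 1 member of 35 (2.86%) with a difference beyond 0.5 in either direction, against 5.10% of all genes.

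The difference of Psmb7 was larger in Cy3, the channel that the labels give to untreated rats. Its normalised log2 Cy5 signal was 12.89 and 12.87 in the oxaliplatin group and 12.96 and 13.06 in the vehicle group, a difference of -0.13 ± 0.076 (adjusted p = 0.370). Its log2 Cy3 signal was 12.90 and 12.86 on the oxaliplatin arrays and 13.67 and 13.78 on the vehicle arrays, a difference of -0.85 ± 0.15 (adjusted p = 0.152). Cy5, which the labels give to the treated rats, thus had nearly equal signals on all 4 arrays, slightly lower with oxaliplatin. Cy3, which the labels call untreated on every array, gave the contrast. The assignment of RNA to the channels was taken from the labels and was not tested. In Cy3 no gene passed (20.9% had an unadjusted p under 0.05).

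The other active-site subunits differed less in ratio. Psmb5, with the chymotrypsin-like site that proteasome inhibitors bind best, had log2 ratios of -0.40 and -0.45 in the oxaliplatin group and -0.39 and -0.51 in the vehicle group, a difference of 0.027 ± 0.12 (adjusted p = 0.938). Its sign turned with the scanner's ratio. Both of its channels were lower on the oxaliplatin arrays: Cy5 was 14.05 and 14.05 against 14.33 and 14.49 (-0.36 ± 0.087, adjusted p = 0.187), and Cy3 14.45 and 14.50 against 14.72 and 15.00 (-0.38 ± 0.17, adjusted p = 0.259). Equal shifts in both channels cancel in the ratio. Psmb6, with the caspase-like site, had ratios of -0.12 and -0.065 against -0.037 and -0.00037. It differed by -0.072 ± 0.11 (adjusted p = 0.795), and by 0.015 with median centring.

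The remaining beta subunits are structural. Psmb2 had 0.020 and -0.090 against 0.10 and 0.13, a difference of -0.15 ± 0.12 without overlap (adjusted p = 0.570). Psmb4 had -0.29 and -0.14 against -0.30 and -0.33, a difference of 0.099 ± 0.12 without overlap (adjusted p = 0.727). Psmb3 had 0.094 and 0.19 against 0.096 and 0.063, and Psmb1 -0.17 and -0.012 against -0.033 and -0.089. These differed by 0.063 ± 0.11 and -0.029 ± 0.12 (adjusted p = 0.829 and 0.935) and overlapped between groups.

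Promoters are shown for the active-site subunits, and for Psmb2 and Psmd9 as further members that carry the antioxidant response element core, because that element is the known link between subunit genes. RefSeq windows (build GRCr8, 250 bases before to 50 after the start) matched 31 of the 35 members, of 27457 promoters in all. Capitals mark the core, searched as TGACNNNGC or its reverse GCNNNGTCA, or for Psmb7 the CCAAT box, searched as CCAAT or ATTGG. Each line is a stretch of the promoter, 5′ to 3′ on the gene's strand. Psmb2 lies at chr5:144254960-144255028 on the plus strand, Psmb5 at chr15:32047401-32047469 on the minus strand and Psmb6 at chr10:55737834-55737887 on the plus strand. Psmb7 lies at chr3:42827545-42827609 on the minus strand and Psmd9 at chr12:39018303-39018371 on the minus strand.
Psmb2: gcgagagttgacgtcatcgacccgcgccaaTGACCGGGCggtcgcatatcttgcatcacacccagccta
Psmb5: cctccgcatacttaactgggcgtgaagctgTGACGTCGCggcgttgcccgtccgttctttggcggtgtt
Psmb6: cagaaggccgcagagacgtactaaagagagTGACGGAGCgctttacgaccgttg
Psmb7: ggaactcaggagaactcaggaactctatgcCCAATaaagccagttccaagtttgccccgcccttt
Psmd9: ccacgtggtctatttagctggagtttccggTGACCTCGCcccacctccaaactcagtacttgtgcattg

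The core motif shown begins 68 bases before the start in Psmb2, 60 in Psmb5, 24 in Psmb6 and 77 in Psmd9. Psmd9 has a further core match in the reverse form at 124, and Psmb7 a further CCAAT match in the reverse form at 250. The core was found in 7 of 31 members (Psma3, Psmb2, Psmb5, Psmb6, Psmd1, Psmd3 and Psmd9), or 22.6%, against 12.2% of all promoters of this length. The CCAAT box was found in 17 of 31, or 54.8%, against 37.7%. Such matches are descriptions of the letters and do not show that a factor binds. The 7 members with the core had a median ratio difference of -0.081, 2 higher and 5 lower, and the 24 without it one of 0.043, 14 higher and 10 lower. The 5 lower include Psmd9, whose probes disagree in sign. With median centring Psma3 and Psmb6 turned to higher, and with the scanner's ratio Psmb5 turned to lower, so these counts depend on the scaling. The split was not tested.

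**Figure D3:**
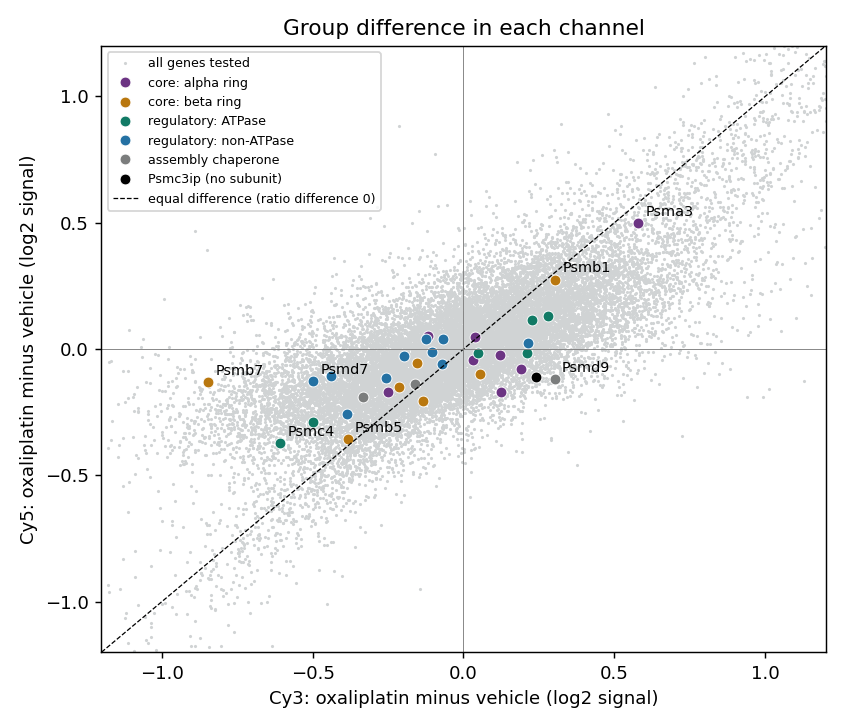
The difference between groups, oxaliplatin minus vehicle, in log2 Cy3 signal (x axis) and in log2 Cy5 signal (y axis) for the members by class and for all genes tested (grey), with a dashed line where both channels differ equally. Psmb7 lies far to the left at a Cy3 difference of -0.85 and a Cy5 difference of -0.13, and Psma3 lies at upper right, high in both channels.

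The ATPases, which form the unfolding ring, split by gene. Of 6, 2 had a higher and 4 a lower ratio in the oxaliplatin group, and with median centring 5 were higher. Psmc4 had log2 ratios of -0.20 and -0.081 against -0.30 and -0.46, a difference of 0.24 ± 0.12 without overlap (adjusted p = 0.419). Psmc3 had -0.23 and 0.12 against -0.21 and -0.31 (0.21 ± 0.15, adjusted p = 0.539), and oxaliplatin replicate 1 lay between the vehicle arrays. Both genes were lower on the oxaliplatin arrays in each channel, more so in Cy3: Psmc4 by -0.37 in Cy5 and -0.61 in Cy3, Psmc3 by -0.29 and -0.50.

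Psmc5 had 0.17 and -0.093 on the oxaliplatin arrays and 0.19 and 0.34 on the vehicle arrays (-0.23 ± 0.14, adjusted p = 0.480). Psmc6 had -0.066 and -0.22 against -0.0063 and 0.018 (-0.15 ± 0.12, adjusted p = 0.587), and Psmc2 had -0.0057 and 0.020 against 0.060 and 0.18 (-0.11 ± 0.12, adjusted p = 0.682). Those 3 did not overlap between groups, each with oxaliplatin lower (background 22.2%). Psmc1 had the lowest ratios of any member, -0.88 and -0.61 against -0.67 and -0.71, and its groups overlapped (-0.061 ± 0.13, adjusted p = 0.861). With median centring the differences of Psmc1, Psmc2 and Psmc6 took the opposite sign.

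Among non-ATPase subunits, which include the ubiquitin receptors and the deubiquitinase of the lid, 9 of 10 had a higher ratio in the oxaliplatin group, and 4 of these 9 did not overlap (background 27.0%). Psmd7, the lid partner of the deubiquitinase, had -0.11 and -0.29 against -0.42 and -0.72, a difference of 0.37 ± 0.15 (adjusted p = 0.327). Psmd13, another lid subunit, had -0.28 and -0.27 against -0.49 and -0.72, a difference of 0.33 ± 0.13 (adjusted p = 0.317). In both genes the vehicle arrays lay below 0 by more than the oxaliplatin arrays, and vehicle replicate 2 was the lowest. Their Cy5 signals differed by -0.13 and -0.11 and their Cy3 signals by -0.50 and -0.44, so here too Cy3 carried the contrast.

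Psmd8 (0.17 ± 0.13, adjusted p = 0.562) had -0.13 and -0.011 against -0.14 and -0.33, which left the groups barely apart. Psmd4, a ubiquitin receptor, differed by 0.13 ± 0.12 without overlap (adjusted p = 0.646). Psmd6 (0.16), Psmd3 (0.14), Psmd2 (0.11) and Psmd14, the deubiquitinase (0.095), overlapped between groups. At the low end Psmd12 had -0.63 and -0.55 against -0.58 and -0.62 (0.0089 ± 0.11, adjusted p = 0.981). Psmd14 had -0.30 and 0.049 against -0.20 and -0.24 (adjusted p = 0.792). Psmd1, the large scaffold of the base, was the exception in direction, with 0.26 and 0.14 against 0.31 and 0.47 (-0.19 ± 0.12, adjusted p = 0.505). The count of 9 higher was 8 with the scanner's ratio, the authors' table, scaled ratios or without vehicle replicate 2, and 6 without oxaliplatin replicate 2.

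No marker gene of a cell type passed the test, but several lists had median differences of the same sign as this class. The ratio was higher in the oxaliplatin group for 6 of 6 astrocyte genes (median difference 0.44, 4 without overlap) and for 5 of 6 oligodendrocyte genes (0.48, 4 without overlap), where 27.0% of all genes were higher without overlap. It was also higher for 3 of 5 neuron genes (0.49) and lower for 3 of 3 Hox genes of the cord (-0.39), or 2 of 3 with median centring. In Cy5 the medians of these lists differed by 0.059 for astrocytes, -0.15 for oligodendrocytes, -0.16 for neurons and -0.077 for Hox genes. In Cy3, which the labels call untreated, they differed by -0.25, -0.52, -0.54 and 0.32, so the larger differences lay there. Median log2 ratios of the astrocyte list were -0.85 and -0.54 on the oxaliplatin arrays and -1.15 and -1.34 on the vehicle arrays, and those of the oligodendrocyte list -1.36 and -1.03 against -1.73 and -1.79. Microglia genes differed by 0.042, endothelial genes by -0.030, dorsal horn neuron genes by -0.050, dorsal root ganglion and Schwann cell genes by -0.14, and forebrain genes by 0.13. Erythrocyte genes differed by 0.74, with medians of 2.04 and 0.12 against 0.90 and -0.22, and without oxaliplatin replicate 1 by -0.22. With scaled ratios the dorsal root ganglion and Schwann cell genes differed by 0.34. Every one of these genes that was tested was above background in Cy5 on all 4 arrays. Their part in the differences of proteasome genes was not tested.

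The assembly chaperones of the base differed from each other. Psmd9 had the lowest difference of all members: its log2 ratio was -0.066 and -0.23 on the oxaliplatin arrays and 0.26 and 0.29 on the vehicle arrays, or -0.42 ± 0.12 without overlap (adjusted p = 0.294). Its probes disagree. The probe A_64_P122010, which has a lower mean signal, had -0.20 and -0.080 against -0.28 and -0.60, a difference of 0.30, and the mean over both probes differed by -0.062. Psmd9 therefore has no settled direction. Psmd5 differed by 0.14 ± 0.13 (adjusted p = 0.650) and Psmd10 by 0.023 ± 0.11 (adjusted p = 0.948), both with overlap. Psmc3ip, the member that is no proteasome gene, had -0.42 and -0.65 against -0.16 and -0.21, a difference of -0.35 ± 0.13 without overlap (adjusted p = 0.312).

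In the Cy5 channel alone, which per the labels holds the RNA of the treated rats, most members gave lower signals with oxaliplatin. The normalised log2 signal was lower in the oxaliplatin group for 26 of 35 members and higher for 9, with a median difference of -0.078 against -0.0072 for all genes, of which 48.6% were higher. For 19 members the oxaliplatin arrays lay below both vehicle arrays (background 30.8%), and for 3, Psma3, Psmb1 and Psmc2, above both (29.1%). Under the alternatives for this channel 23 to 27 members were lower. None passed the limma test (0 of all genes passed and 20.5% had an unadjusted p under 0.05, as had 5 members). The smallest member adjusted p was 0.180, for Psmc4. The SE of a single member's Cy5 difference was at least 0.071.

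In the beta ring 6 of 7 genes were lower in Cy5, and none of the 7 overlapped between groups (59.9% of all genes did not overlap). Psmb1 was the exception, at 13.15 and 13.10 in the oxaliplatin group and 12.90 and 12.80 in the vehicle group, a difference of 0.28 ± 0.079 (adjusted p = 0.208). Psma3 of the alpha ring had the largest Cy5 difference, with 12.62 and 12.71 against 12.37 and 11.96, or 0.50 ± 0.16 (adjusted p = 0.220). Its Cy3 signal followed, with 12.38 and 12.52 against 12.12 and 11.61, so that its ratio differed by -0.081. Leaving out vehicle replicate 1 changed this picture most. Then 5578 genes (24.4%) passed in Cy5, among them 5 members: Psma3 and Psmb1 higher and Psmb5, Psmc4 and Psmd4 lower. Without vehicle replicate 2, 701 genes passed and 0 members. The cause was not tested, and each of these fits rests on a single vehicle array.

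In Cy3, where both groups should hold untreated RNA, the members had a median absolute difference of 0.21, against 0.11 in Cy5. All genes tested had 0.24 in Cy3 and 0.15 in Cy5, so the larger difference in Cy3 is not particular to the members. The signal was lower on the oxaliplatin arrays for 20 members and higher for 15, with a median difference of -0.11 against -0.023 for all genes, of which 47.2% were higher. It did not overlap for 24 members (background 58.4%), 15 lower and 9 higher (backgrounds 31.9% and 26.5%). The non-ATPase subunits were lower in 9 of 10, and the alpha ring was higher in 6 of 8. Calls in Cy3 with a vehicle array left out rest on a single vehicle array and are not counted here for the members. Both channels differed in the same direction for 23 of 35 members, against 79.4% of all genes. Across members the ratio difference correlated with the Cy3 difference at -0.85 and with the Cy5 difference at -0.22. Over all genes these were -0.66 and -0.18. The points share arrays, and the ratio contains both channels, so these values are descriptive.

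Within each group the ratio was also set against 0. Per the labels this compares treated with untreated RNA on the same array, but it cannot be told apart from a dye effect. In the vehicle group 15 members passed (background 45.5%), 5 with Cy5 higher and 10 with Cy5 lower, where 23.4% and 22.1% of all genes passed. Those with Cy5 higher were Psma3, Psma6, Psma8, Psmd1 and Psmd9. For Psma8 and Psmd9 this holds for the probe used alone: the other probes had ratios of -0.38 and -0.36 and of -0.33 and -0.29 for Psma8, and of -0.28 and -0.60 for Psmd9, on the vehicle arrays. Those with Cy5 lower were Psmb4, Psmb5, Psmb7, Psmc1, Psmc4, Psmd3, Psmd4, Psmd7, Psmd12 and Psmd13. In the oxaliplatin group 7 passed (background 34.8%), Psma8 and Psmd6 with Cy5 higher and Psmb5, Psmc1, Psmd3, Psmd12 and Psmc3ip lower, where 19.0% and 15.8% of all genes passed. The groups share one estimate of the spread.

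Called with the same sign in both groups were 5 members (background 27.5%): Psma8 higher, and Psmb5, Psmc1, Psmd3 and Psmd12 lower. The mean log2 ratio of Psmc1 was -0.75 in the oxaliplatin group and -0.69 in the vehicle group (adjusted p = 0.0016 in each). That of Psmd12, read by 10 spots, was -0.59 and -0.60 (adjusted p = 0.0022 and 0.0015). These lower ratios belong to both groups alike. The direction of the calls over the members depends on the scaling. With median centring 14 members were called higher and 2 lower in the vehicle group, and 18 higher and 1 lower in the oxaliplatin group. All genes then gave 26.0% higher and 15.0% lower in the vehicle group, and 29.4% and 24.0% in the oxaliplatin group. Without vehicle replicate 2 the vehicle calls of members were 0 higher and 4 lower (all genes 11.6% and 10.3%). Without vehicle replicate 1 they were 2 and 7 (14.5% and 13.9%), and without either oxaliplatin array 8 and 15 (27.4% and 25.7%).

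The inducible subunits, which replace the 3 active-site subunits in immune cells and after interferon, are Psmb8, Psmb9 and Psmb10, and the first 2 varied more between arrays of a group than any member did. Psmb8, counterpart of Psmb5, had log2 ratios of -1.05 and 0.25 on the oxaliplatin arrays and -0.19 and -0.75 on the vehicle arrays. Psmb9, counterpart of Psmb6, had -0.66 and 0.70 against 0.45 and -0.22. The gap between the oxaliplatin arrays was 1.30 for Psmb8 and 1.36 for Psmb9, while the largest such gap among the members was 0.42. Their group differences were 0.071 ± 0.40 and -0.10 ± 0.43 (adjusted p = 0.954 and 0.937). Psmb10, counterpart of Psmb7, had 0.29 and 0.52 against 0.73 and 0.68, a difference of -0.30 ± 0.13 without overlap (adjusted p = 0.349), opposite in sign to Psmb7.

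The spread of these genes lay in Cy3. The log2 Cy3 signal of Psmb8 was 10.24 and 8.85 on the oxaliplatin arrays and 9.57 and 10.28 on the vehicle arrays, and that of Psmb9 11.49 and 10.19 against 10.44 and 11.38. Psme1, a subunit of the interferon-induced activator PA28, had ratios of -0.62 and 0.23 against -0.22 and -0.63 (0.23 ± 0.28, adjusted p = 0.731). Its Cy3 signal was 14.45 and 13.61 against 14.03 and 14.56. In all 3 genes oxaliplatin replicate 1 and vehicle replicate 2 had the higher Cy3 signal and the lower ratio within their group. Psme2, the partner of Psme1, had -0.12 and -0.027 against 0.28 and 0.081 (-0.25 ± 0.13, adjusted p = 0.401).

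**Figure D4:**
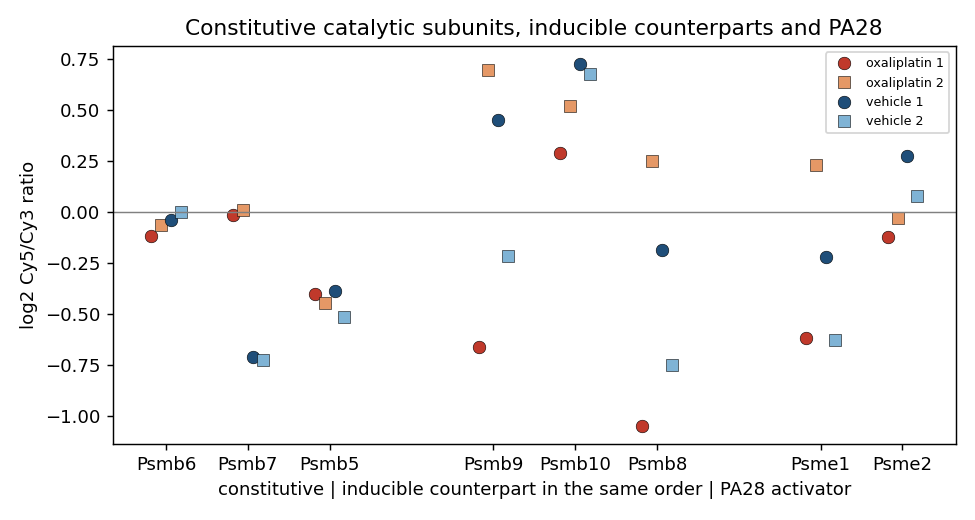
The log2 Cy5/Cy3 ratio (y axis) on each array for the active-site subunits, their inducible counterparts in the same order and the PA28 activator genes (x axis), with red and orange for oxaliplatin and blue for vehicle arrays. Psmb8, Psmb9 and Psme1 spread by 0.85 to 1.36 between the oxaliplatin arrays, while Psmb5, Psmb6 and Psmb7 keep their arrays close within each group.

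Other genes of the pathway were taken from lists chosen by function. Of 33 tested (inducible subunits and PA28 included), 21 had a higher and 12 a lower ratio in the oxaliplatin group, with a median difference of 0.081, and 0 passed. Without oxaliplatin replicate 2, 16 were higher and 17 lower. The groups did not overlap for 12 with oxaliplatin higher (background 27.0%) and 7 lower (22.2%). Among activators and the inhibitor, Psme3 differed by 0.31 ± 0.14 without overlap (adjusted p = 0.361), and Psme4 by 0.081 ± 0.21 (adjusted p = 0.888). Psmf1, an inhibitor of the core particle, had 0.052 and 0.55 against -0.18 and -0.18, or 0.48 ± 0.18 without overlap (adjusted p = 0.312). Without oxaliplatin replicate 1 Psmf1 differed by 0.74, and without oxaliplatin replicate 2 by 0.23.

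Adrm1, a ubiquitin receptor bound to the base, had -0.013 and -0.060 on the oxaliplatin arrays and -0.45 and -0.72 on the vehicle arrays, a difference of 0.55 ± 0.13 (adjusted p = 0.294). Unlike Psmb7 it differed mainly in Cy5, by 0.63, with 0.075 in Cy3. Usp14, a bound deubiquitinase, differed by -0.061 ± 0.12 (adjusted p = 0.838), and Sem1, a small lid subunit outside the naming rule, by -0.35 ± 0.15 without overlap (adjusted p = 0.339). Of the assembly factors, Pomp, which matures the core particle, differed by -0.15 ± 0.13 (adjusted p = 0.615), Psmg2 by 0.050 and Psmg4 by 0.83 ± 0.20 (adjusted p = 0.294). Nfe2l1 and Uchl5 were not analysed here.

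The genes outside the members named in brackets or by value in the next sentences, and Sem1, Psmg2 and Psmg4 above, were chosen after their values were seen. Upstream of the proteasome, 2 of 4 ubiquitin genes were higher (Ubb by 0.40) and 2 lower (Rps27a by -0.33), and 3 of 5 shuttle factors were higher, or 2 of 5 with the scanner's ratio. Of 5 genes for ubiquitin activation and the Vcp segregase, 3 were higher (Uba1, the main activating enzyme, by 0.56) and 2 lower (Uba6, the alternative enzyme, by -0.31). On the list of transcription factors and processing, of which Nfe2l1 was not analysed, 5 of 5 genes were higher, with a median of 0.16. With the scanner's ratio or median centring 4 of 5 were higher and Maff was lower. The 5 genes were Nfe2l2, Ngly1, Maff, Mafg and Mafk, at 0.038 to 0.23, and 4 of the 5 did not overlap (background 27.0%). Their median difference was -0.16 in Cy5 and -0.33 in Cy3. Both channels were lower on the oxaliplatin arrays for each of them except Mafk, which differed by 0.066 in Cy5 and -0.17 in Cy3. None of these genes passed the test. Without oxaliplatin replicate 1 Uba1 differed by 0.75, in a fit that rests on a single oxaliplatin array.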

How the data were processed

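RNA of 4 rat spinal dorsal horn arrays was analysed. Per the file headers, the deposited scanner files hold median spot and background intensity per channel, flags, and a log10 ratio of Cy5 over Cy3 made by Agilent Feature Extraction 10.7.1.1 (8.5.1.1 in the submitters' processing notes). The authors deposited a value table of log10 ratios, which matched the scanner ratio within 0.0050. Its column medians were -0.00277 and 0 on the oxaliplatin arrays, and -0.00492 and -0.00316 on the vehicle arrays. The deposited flags mark, among other things, spots well above background, saturated or outliers. Saturation was flagged for 1 spot. Of 62976 spots 4259 were controls and were left out, and 0 columns were unmapped. Where the extract protocol in the labels names Cy3 labelling only, the channel labels were followed.

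The plan named mean signals. The files hold medians, which were used. In limma 3.58.1 (R 4.3.3) signals were corrected with normexp (offset 50), normalised by loess within arrays and averaged over spots without outlier flags. Probes were named through RefSeq accessions (18758 of 30367 had a symbol). Of these probes, 26004 with Cy5 well above background (at least 0.5 of a probe's spots flagged so) on at least 2 arrays were kept, and each gene took its probe with the highest mean signal (22817 genes). Groups were compared with lmFit and eBayes (two-sided, residual df 2, prior df 4.74, Benjamini-Hochberg over all genes, threshold 0.05), on ratios and on single channels after Aquantile. The script was tested on simulated data. The number of arrays limits the precision.

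Values on every array are given for the 3 highest and 3 lowest differences per class, the active-site subunits and genes whose probes disagree. Members and lists were chosen with earlier results of these data known. The gene lists for pathway genes and cell types, whose results stand in the text, come from general knowledge. Replicate numbers did not pair the arrays: deviations of arrays with the same number correlated at -0.22.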

Additional observations from a re-analysis of the deposited data

How the results depend on the processing

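The main limits are the 2 arrays per group, a slide for each group, no dye swap, and the low Cy3 signal of oxaliplatin replicate 2. Alternatives were another scaling or ratio source, no background correction, other filters on dim probes, the mean over a gene's probes, quantile scaling within a channel, a replicate block and leaving out each array. No background correction, other filters on dim probes, the mean over probes and quantile scaling left every result compared on its side of the threshold and in its direction. With median centring the median ratio difference was 0.12 over all members, 0.053 in the core and 0.21 in the regulatory particle, and 12195 genes passed for the oxaliplatin ratio against 0 (7940 with loess). Scaled ratios gave -0.037 for the core. With a replicate block 3 genes passed, 0 of them members, against 0 without it; the numbers do not pair the arrays, and the block changed no other call among the results refitted with it. With each array left out in turn, 2 to 930 genes passed for the ratio, 0 to 5578 in Cy5, 0 to 2140 in Cy3 and 4978 to 12113 for the vehicle ratio against 0. Member medians then ranged from -0.032 to 0.055 over all, -0.062 to -0.035 in the core and -0.0066 to 0.23 in the regulatory particle.

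Differences near 0 changed sign. Median centring gave -0.19 for Psma8, 0.12 for Psmb1, 0.015 for Psmb6, 0.040 for Psmc1, 0.0085 for Psmc2, 0.0052 for Psmc6, 0.032 for Psmb9, 0.058 for Usp14, 0.10 for Psma3, 0.018 for Psma4 and -0.36 for Maff. Scaled ratios gave -0.037 for Psmb5, -0.070 for Psmd12 and -0.0066 for Psmd10. The scanner's ratio gave -0.020, -0.0012 and -0.024 for these genes, and the authors' table -0.020, -0.0015 and -0.024; for Maff both gave -0.047. Without an array the range was -0.043 to 0.38 for Psma1, -0.087 to 0.25 for Psma7, -0.15 to 0.17 for Psma8, -0.11 to 0.050 for Psmb1 and -0.035 to 0.089 for Psmb5. It was -0.20 to 0.074 for Psmc1, -0.020 to 0.066 for Psmd10, -0.032 to 0.050 for Psmd12, -0.079 to 0.27 for Psmd14, -0.27 to 0.12 for Psma4 and -0.025 to 0.24 for Psmd2. Outside the members it was -0.58 to 0.72 for Psmb8, -0.78 to 0.58 for Psmb9, -0.19 to 0.65 for Psme1, -0.24 to 0.40 for Psme4, -0.046 to 0.15 for Psmg2 and -0.020 to 0.096 for Maff. The cause was not tested. With an array left out the lone array of a group is assumed to vary like the other group.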
